A study of Arabidopsis thaliana with 12 samples.

Results

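The comparison described here set the ka120 mutant against the wild type Col-0, with 3 RNA sequencing libraries each, 6 of the 12 libraries in the series. The other 6 came from 2 double mutants that carry ka120 together with pad4 or ndr1; they entered the statistical model for its estimate of spread and are not described. The mutant is in the Col-0 background; no label names its allele. Both genotypes were sampled as untreated rosette leaves of 3-week-old plants kept on soil at 22 °C under days of 16 h light and nights of 8 h, and strand-specific mRNA libraries were made from total RNA. Nothing in the labels tells whether replicate libraries stem from different plants, so the p-values cover only the spread between these samples, which may be technical. The members are all genes that could be tested, 22351 of the 34262 in the count table. They are described by metabolic pathway, transporter family, cell wall component, transcription factor family and organelle, beyond the usual immune markers. Immune marker genes were left out only from the largest gains and losses, and any that belong to another list are counted there.

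KA120 belongs to the importin-beta family, transport receptors that carry proteins through the nuclear pore. The study's title names it as a negative regulator of effector-triggered immunity, the strong response that follows when intracellular NLR receptors detect a pathogen's effectors. In leaves, such immune states are known to favour salicylic acid signalling, secretion and wall defences at the cost of photosynthesis and growth. The comparison asks what the ka120 mutation alone changed in leaf transcripts.

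Levels are given as normalised counts relative to library size (CPM, counts per 1e6) in libraries 1, 2 and 3 of each genotype, or as mean ± SD of the 3. Changes are log2 fold changes of ka120 over Col-0 ± an approximate standard error, with p-values from edgeR's quasi-likelihood F test, adjusted over all tested genes by the Benjamini-Hochberg method. A gene was called higher or lower at an adjusted p under 0.05. Where the values of a group lie near 0 CPM they rest on few counts, and the size of the fold change is uncertain. The transcript taken as KA120 (AT3G08960, chromosome 3, 2729743 to 2737356 on the minus strand, TAIR10.1) stood at 4.99, 4.80 and 6.03 CPM in ka120, against 24.2, 33.0 and 30.4 CPM in Col-0. All ka120 libraries lay below all Col-0 libraries (log2 fold change -2.47 ± 0.15, adjusted p = 9.15e-08). That AT3G08960 is KA120 is background knowledge, since the sources used here give no locus.

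In ka120, 12276 genes, 54.9% of those tested, differed from Col-0. Of these, 6252 were higher, 28.0% of the tested genes, and 6024 were lower, 27.0%. Differences of at least 2-fold were called for 4060 genes, 18.2%, of which 2400 (10.7%) were higher and 1660 (7.43%) lower. The 3 ka120 values did not overlap the 3 Col-0 values for 14143 genes, 63.3%, with 7211 above (32.3%) and 6932 below (31.0%). With so many genes called, a list of genes stands apart only by how one-sided it is, and the counts below are to be read against these shares. Genes picked from the lists by size of change, and the largest gains and losses, had to be called and free of overlap. For these genes the call and the lack of overlap are conditions of the choice and not results.

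The balance between higher and lower depended on the scaling. The TMM factors were 1.07 to 1.09 in ka120 and 0.843 to 0.874 in Col-0, and the median log2 fold change of all genes was 0.02 with them and 0.35 with library totals alone. There, 10754 genes were called higher and 3091 lower, with 86 genes called in opposite directions by the 2 scalings. Where library totals change which side of a list has more calls, those counts are given with the list, as "by library totals". The libraries held 78305746 to 85884840 counts in ka120 and 70386729 to 80707416 counts in Col-0.

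ka120 replicate 3 stood apart from the other ka120 libraries. The 56 immune marker genes of the earlier work on these data, all higher in ka120, took 0.901, 0.989 and 0.641% of counts in ka120 libraries 1, 2 and 3, against 0.0429, 0.0440 and 0.0505% in Col-0. The 15 mesophyll and photosynthesis markers took 6.46, 6.32 and 7.23% in ka120 and 10.2, 10.7 and 10.2% in Col-0, so replicate 3 lay between the other ka120 libraries and Col-0 in both. Without it, 6036 genes were called higher and 5677 lower.

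The transcripts that lost most in ka120 were those of the light-harvesting and carbon-fixing machinery of the chloroplast. RCA (rubisco activase) had 8581, 8583 and 9538 CPM in ka120, against 16419, 17399 and 16446 CPM in Col-0 (log2 fold change -0.91 ± 0.08, adjusted p = 1.06e-06). CAB1, a chlorophyll-binding antenna protein, had 8709, 8336 and 9268 CPM in ka120 and 16337, 17942 and 16199 CPM in Col-0 (log2 fold change -0.94 ± 0.09, adjusted p = 2.17e-06). CAB2, CAB3, RBCS1A, RBCS3B, CA1, LHCB3, LHCB5, LHCB6, LHCA4 and FBA2, a plastid aldolase, made up the rest of the 12 largest losses in mean CPM among nuclear genes, with log2 fold changes from -1.73 (CA1) to -0.64 (RBCS1A). Near-identical copies (CAB1 to CAB3, the RBCS genes) may share reads, so their separate values are uncertain. In bulk leaf RNA, fewer cells of a type and less of a transcript per cell cannot be told apart.

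The largest gains outside the immune markers were mixed in kind. AT3G22235, annotated as a cysteine-rich stress tolerance protein, had 1006, 1125 and 1194 CPM in ka120, against 70.2, 65.9 and 103 CPM in Col-0 (log2 fold change 3.79 ± 0.35, adjusted p = 2.04e-06). PCR1, a small membrane protein of the plant cadmium resistance family, had 879, 982 and 610.1 CPM in ka120 and 1.73, 3.39 and 4.54 CPM in Col-0 (log2 fold change 7.99 ± 0.57, adjusted p = 2.96e-07). AT1G35710, a kinase with leucine-rich repeats, had 864, 868 and 703 CPM in ka120 and 18.8, 20.3 and 29.7 CPM in Col-0 (log2 fold change 5.15 ± 0.28, adjusted p = 5.85e-08). For all 3 genes each ka120 library was at least several times above each Col-0 library. The other 9 were the chaperones SHD, BIP1, BIP2 and CNX1 of the endoplasmic reticulum, the glycine-rich GRP-3, ECS1, the EF-hand protein AT2G41090 and the unnamed AT2G25510 and AT5G42530, with log2 fold changes from 1.44 (AT2G41090) to 2.64 (AT2G25510). BIP1 and BIP2 are near-identical and may share reads.

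Across 1044 tested genes of metabolism, 267 were higher and 443 lower, but 398 and 291 by library totals. Photorespiration had the largest share of lower members among the metabolism lists: 19 of its 20 tested members were lower in ka120, 12 of them by at least 2-fold, with a median log2 fold change of -1.03. This pathway salvages the glycolate made when rubisco fixes oxygen, through peroxisomes and mitochondria. AT1G23310 (GGT1, chromosome 1), the peroxisomal glutamate:glyoxylate aminotransferase, had 409, 409.9 and 393 CPM in ka120, against 2559, 3082 and 2622 CPM in Col-0 (log2 fold change -2.77 ± 0.08, adjusted p = 1.54e-09). Its paralog AOAT2 was lower as well (-1.76 ± 0.09). SHM1, the mitochondrial serine hydroxymethyltransferase, had 1235, 1188 and 1320.4 CPM in ka120 and 3081, 3417 and 3147 CPM in Col-0 (log2 fold change -1.37 ± 0.07, adjusted p = 3.02e-08). BOU, a mitochondrial carrier needed for photorespiration, fell to a similar extent (-1.37 ± 0.25). The 1 higher member, named after its values were seen, was the glycolate oxidase GOX3, at 0.834, 0.894 and 0.909 CPM in ka120 against 0.358, 0.405 and 0.269 CPM in Col-0 (log2 fold change 1.35 ± 0.48, adjusted p = 0.0296), a call that ended when Col-0 replicate 1 or 3, or any 1 ka120 library, was left out.

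Plastid isoprenoid synthesis was lower too. Of 29 tested genes for carotenoids, tocopherols and their precursors, 26 were lower and 0 higher (median -0.70). DXR, an early enzyme of the plastid isoprenoid route, had 87.6, 87.7 and 98.4 CPM in ka120, against 244, 264 and 241 CPM in Col-0 (log2 fold change -1.45 ± 0.06, adjusted p = 2.17e-08). BETA-OHASE 2, which hydroxylates beta-carotene, had 21.9, 22.6 and 25.8 CPM in ka120 and 65.4, 68.5 and 60.3 CPM in Col-0 (log2 fold change -1.47 ± 0.12, adjusted p = 8.78e-07). CCD1, which cleaves carotenoids, changed by -1.23 ± 0.06 and ABA1, the zeaxanthin epoxidase, by -1.16 ± 0.10 on the log2 scale. The 3 members without a call, named after their values were seen, all belong to the tocopherol branch. They were G-TMT at 95.4 ± 2.57 CPM in ka120 and 84.7 ± 2.90 CPM in Col-0 (adjusted p = 0.0522), HPT1 (adjusted p = 0.0700) and VTE5 (adjusted p = 0.187). G-TMT passed the threshold, as higher, with other count models and scalings, and HPT1, as lower, with some.

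Starch genes were mostly lower: 6 of 38 tested members were higher and 26 lower (median -0.56). APL1, a large subunit of the enzyme that makes ADP-glucose for starch, had 125, 124 and 127 CPM in ka120, against 362, 407 and 383 CPM in Col-0 (log2 fold change -1.61 ± 0.06, adjusted p = 6.46e-09). LSF2, a phosphatase that acts on starch granules, had 7.15, 7.56 and 9.31 CPM in ka120 and 55.5, 51.5 and 53.4 CPM in Col-0 (log2 fold change -2.74 ± 0.11, adjusted p = 1.13e-08), and the beta-amylase BAM6 was also lower (-2.65 ± 0.19). AMY1, an alpha-amylase, went the other way, with 8.61, 6.90 and 5.29 CPM in ka120 and 1.37, 0.539 and 0.496 CPM in Col-0 (log2 fold change 3.12 ± 0.42, adjusted p = 5.14e-05). Sucrose genes were mixed, with 5 of 18 higher and 8 lower (9 and 5 by library totals). Among them cwINV6, a fructan exohydrolase related to cell wall invertases, had 33.9, 33.7 and 32.1 CPM in ka120 where Col-0 had 0.260, 0 and 0.0709 CPM (log2 fold change 8.22 ± 0.42, adjusted p = 3.42e-08). ATBFRUCT1, a cell wall invertase, was higher too, at 40.6 ± 9.33 CPM in ka120 and 12.8 ± 0.549 CPM in Col-0 (log2 fold change 1.67 ± 0.20, adjusted p = 1.95e-05).

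In glycolysis, 7 of 32 tested members were higher and 20 lower, but 13 higher and 10 lower by library totals. FBA5, an aldolase, had 42.3, 34.1 and 47.8 CPM in ka120, against 409.8, 467 and 408 CPM in Col-0 (log2 fold change -3.37 ± 0.19, adjusted p = 7.91e-08). PFK3, a phosphofructokinase, was the opposite case with 24.1, 26.4 and 20.2 CPM in ka120 and 3.11, 4.97 and 3.67 CPM in Col-0 (log2 fold change 2.59 ± 0.23, adjusted p = 1.49e-06). For both enzymes the lack of overlap was a condition of the choice. PPC3, a phosphoenolpyruvate carboxylase, changed by -1.67 ± 0.14 and the plastid pyruvate kinase PKp3 by -1.36 ± 0.10.

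The citric acid cycle had more higher than lower members: 10 of 20 tested members were higher and 6 lower (median 0.18). Their summed level, however, was lower, at 1930 to 2022 CPM in ka120 and 2224 to 2335 CPM in Col-0. As a share of library totals the list was higher, at 0.206 to 0.221% in ka120 and 0.194 to 0.197% in Col-0. ACO1, an aconitase, was lower at 170 ± 3.15 CPM in ka120 and 314 ± 26.2 CPM in Col-0 (log2 fold change -0.88 ± 0.06, adjusted p = 2.52e-07). IDH2, a subunit of NAD-dependent isocitrate dehydrogenase, had 44.7 ± 5.96 CPM in ka120 and 24.9 ± 1.75 CPM in Col-0 (log2 fold change 0.84 ± 0.16, adjusted p = 8.96e-04). The 2 fumarases differed. FUM2, the cytosolic enzyme behind the fumarate store of leaves, had 19.2, 16.1 and 23.2 CPM in ka120, against 182, 221 and 182 CPM in Col-0 (log2 fold change -3.32 ± 0.21, adjusted p = 1.32e-07). FUM1, the mitochondrial enzyme, named here for this contrast after its values were seen, had 85.9, 91.6 and 89.0 CPM in ka120 and 100.9, 97.6 and 94.9 CPM in Col-0 (adjusted p = 0.0683), so no call was made; it was called lower with upper quartile factors and higher with library totals.

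The alternative respiratory enzymes, which bypass the proton-pumping complexes, divided as well, with 6 of 13 higher and 5 lower (median 0.31). They summed to 364 to 377 CPM in ka120 and 466 to 534 CPM in Col-0, while their shares of library totals overlapped. AOX1A, the main alternative oxidase, whose promoter is shown with the motif counts, had 62.5, 64.8 and 59.6 CPM in ka120, against 27.2, 33.8 and 26.6 CPM in Col-0 (log2 fold change 1.09 ± 0.11, adjusted p = 4.09e-06). The alternative NAD(P)H dehydrogenases NDA2 (1.27 ± 0.16) and NDB2 (1.24 ± 0.21) were higher with it. NDA1, a member of the same family, was lower, at 120.4 ± 12.4 CPM in ka120 and 277 ± 22.3 CPM in Col-0 (log2 fold change -1.20 ± 0.12, adjusted p = 3.29e-06). In the peroxisome, 9 of 17 genes of fatty acid beta-oxidation were higher, led by LACS6 (1.14 ± 0.10), OPCL1 (0.82 ± 0.13), IBR1 (0.80 ± 0.08) and MFP2 (0.68 ± 0.07). The 1 lower member, named after its values were seen, was the acyl-CoA oxidase ACX4 (log2 fold change -0.19 ± 0.07, adjusted p = 0.0377), no longer called when any of Col-0 replicates 1 and 2 and ka120 replicates 1 and 3 was left out, and higher without a call by library totals. Synthesis of fatty acids and membrane lipids ran the other way, with 27 of 41 lower and 8 higher (median -0.43). MGD1, which makes the galactolipid of thylakoids, had 41.7 ± 1.04 CPM in ka120 and 113 ± 18.9 CPM in Col-0 (log2 fold change -1.43 ± 0.14, adjusted p = 4.42e-06), and the plastid desaturase FAD8 changed by -1.23 ± 0.19.

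A cytosolic and the plastid form of glutamine synthetase moved in opposite directions. AT5G37600 (GSR 1), a cytosolic glutamine synthetase, had 174, 177 and 130.4 CPM in ka120, against 35.3, 32.5 and 30.1 CPM in Col-0 (log2 fold change 2.296 ± 0.21, adjusted p = 2.24e-06). GS2, the plastid form that recaptures photorespiratory ammonium, was named for this contrast after its values were seen. It had 1303, 1268 and 1387 CPM in ka120 and 3062, 3138 and 2969 CPM in Col-0 (log2 fold change -1.21 ± 0.06, adjusted p = 3.40e-08). NIR1, nitrite reductase, was lower at 184 ± 15.2 CPM in ka120 and 546 ± 12.9 CPM in Col-0 (log2 fold change -1.57 ± 0.12, adjusted p = 3.95e-07), as were the asparagine synthetase ASN2 (-1.47 ± 0.10) and P5CS1, which makes proline (-1.24 ± 0.20). Over the whole list, 7 of 29 were higher and 13 lower, but 11 and 8 by library totals.

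Sulfur genes were lower on balance, with 7 of 31 tested members higher and 20 lower (median -0.43; 10 and 11 by library totals). ATSDI1, known for its induction under sulfur deficiency, had 8.53, 9.19 and 8.82 CPM in ka120, against 0.846, 0.337 and 1.02 CPM in Col-0 (log2 fold change 3.57 ± 0.31, adjusted p = 1.42e-06). APR3, which reduces activated sulfate, had 53.5 ± 1.45 CPM in ka120 and 128 ± 8.42 CPM in Col-0 (log2 fold change -1.25 ± 0.13, adjusted p = 6.78e-06), while the ATP sulfurylase APS4 changed by 1.24 ± 0.10. Among sulfate transporters, 7 of 11 were lower and 1 higher. The higher one was SULTR1;2, a high-affinity transporter known from roots, at 7.05, 7.91 and 8.65 CPM in ka120 and 0.911, 0.641 and 1.25 CPM in Col-0 (log2 fold change 3.06 ± 0.27, adjusted p = 1.47e-06). SULTR2;1, which works in the vasculature, had 73.9 ± 7.17 CPM in ka120 and 232 ± 9.87 CPM in Col-0 (log2 fold change -1.65 ± 0.08, adjusted p = 2.40e-08).

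Among antioxidant enzymes, MDHAR (AT3G09940), a monodehydroascorbate reductase, had 31.9, 41.9 and 22.7 CPM in ka120, where Col-0 had 0.130, 0 and 0.0567 CPM (log2 fold change 8.97 ± 0.47, adjusted p = 4.64e-08). FSD1, an iron superoxide dismutase, had 76.9, 86.5 and 181 CPM in ka120, against 735, 642 and 677 CPM in Col-0 (log2 fold change -2.57 ± 0.32, adjusted p = 2.64e-05). TAPX, the thylakoid ascorbate peroxidase, had 38.8, 36.1 and 45.8 CPM in ka120 and 202, 209 and 197 CPM in Col-0 (log2 fold change -2.33 ± 0.10, adjusted p = 2.17e-08). Over all antioxidant enzymes 9 of 40 were higher and 20 lower (16 and 15 by library totals). Thioredoxins and glutaredoxins had 20 of 90 higher and 41 lower (median -0.21); their counts by library totals are not given here. Of the thioredoxins, the h-type TRX5 had 129 ± 32.5 CPM in ka120 and 7.56 ± 0.798 CPM in Col-0 (log2 fold change 4.09 ± 0.27, adjusted p = 2.00e-07), whereas TRXF1, the plastid f-type that activates Calvin cycle enzymes in the light, had 88.1 ± 2.73 CPM in ka120 and 313 ± 20.02 CPM in Col-0 (log2 fold change -1.83 ± 0.06, adjusted p = 5.60e-09). Glutathione S-transferases had 15 of 39 higher and 13 lower, and the 4 that the naming rule picked all rose: GSTU8 (5.16 ± 0.33), GSTF7 (3.66 ± 0.37), GSTF2 (3.17 ± 0.27) and GSTU4 (2.95 ± 0.45).

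The large families of specialised metabolism moved in both directions. Of 158 tested cytochromes P450, 44 were higher and 57 lower, but 56 and 39 by library totals. CYP71B23 had 42.4, 39.5 and 25.4 CPM in ka120, against 2.90, 3.30 and 4.55 CPM in Col-0 (log2 fold change 3.31 ± 0.30, adjusted p = 2.12e-06), and CYP71B19 of the same subfamily rose as well (3.19 ± 0.25). CYP78A8, of a family tied to organ growth, had 0.951, 1.03 and 1.36 CPM in ka120 and 14.32, 14.97 and 10.3 CPM in Col-0 (log2 fold change -3.56 ± 0.26, adjusted p = 3.57e-07). Lipid transfer proteins had 25 of 64 higher and 16 lower, with EARLI1, a proline-rich member of that family, at 15.3, 15.03 and 7.17 CPM in ka120 and 0.195, 0 and 0 CPM in Col-0 (log2 fold change 7.596 ± 0.73, adjusted p = 2.94e-06). In phenylpropanoid and lignin synthesis 6 of 27 were higher and 11 lower (8 and 8 by library totals). CAD1, an alcohol dehydrogenase of that list, changed by 1.82 ± 0.21, and PAL3 by -1.45 ± 0.12. UGT76B1, a glucosyltransferase named after its values were seen, had 1.93, 3.67 and 1.23 CPM in ka120 and no count in any Col-0 library (adjusted p = 1.40e-04).

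**Figure D1:**
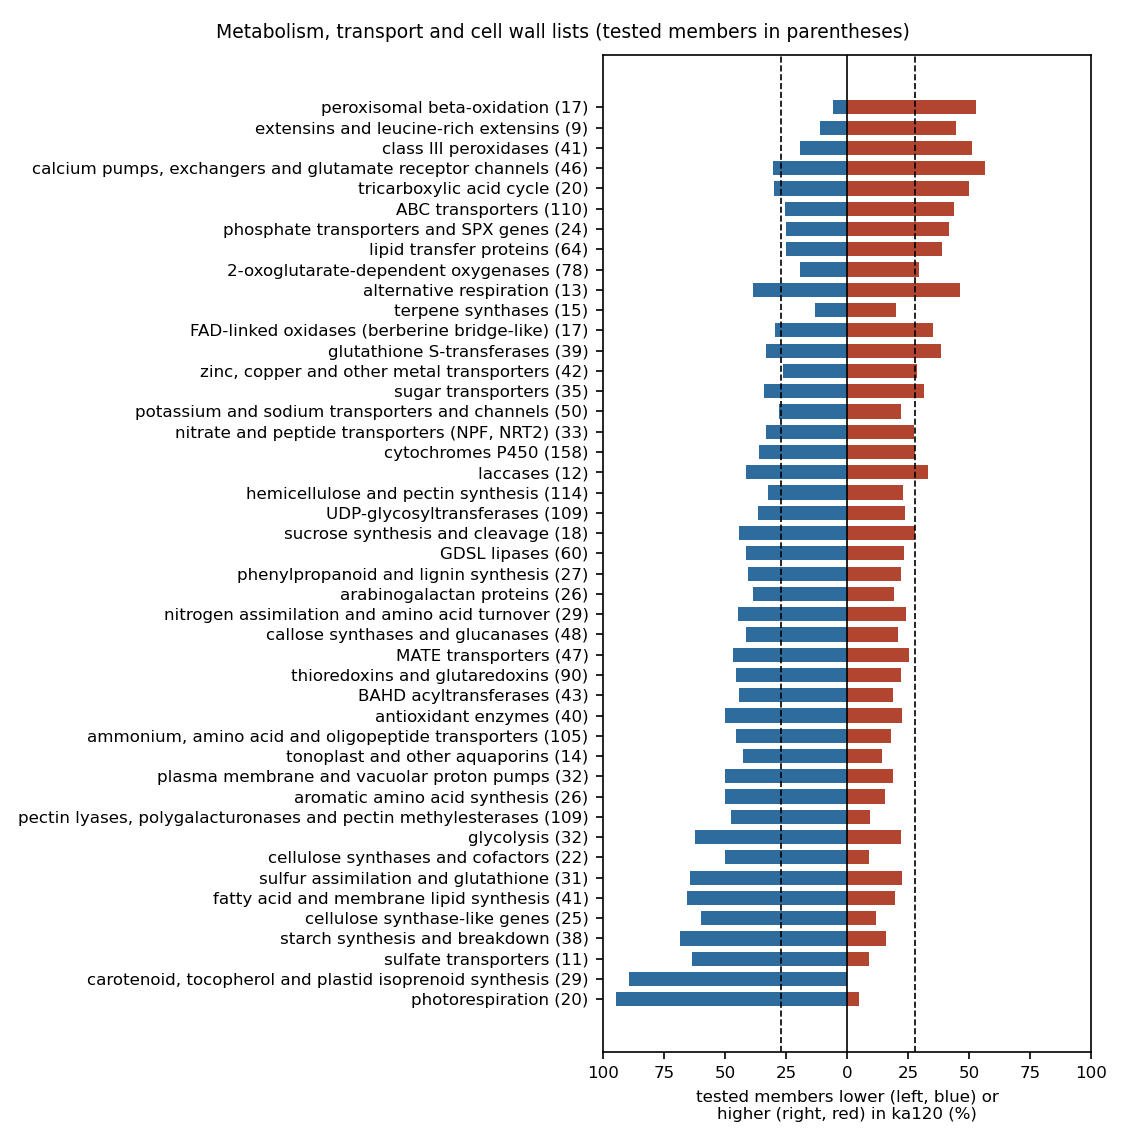
Share of tested members called higher (right, red) or lower (left, blue) in ka120 than in Col-0, in percent, for the lists of metabolism, transport and cell wall genes with at least 8 tested members. Dashed lines mark the shares over all tested genes, 28.0% higher and 27.0% lower; peroxisomal beta-oxidation, with 9 of 17 higher, lies at the top and photorespiration, with 19 of 20 lower, at the bottom.

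Among 549 tested transport genes, 167 were higher and 195 lower, but 241 and 114 by library totals. Calcium transport leaned upward: of 46 tested calcium pumps, exchangers and glutamate receptor channels, 26 were higher and 14 lower, with 17 of the higher ones past 2-fold (median 0.49). Glutamate receptor-like genes encode cation channels that can pass calcium. GLR2.8 had 11.0, 11.2 and 8.52 CPM in ka120, against 0.521, 0 and 0.170 CPM in Col-0 (log2 fold change 5.47 ± 0.54, adjusted p = 4.09e-06). ATGLR1.2 had 7.35, 8.58 and 5.69 CPM in ka120 and 0.130, 0.337 and 0.340 CPM in Col-0 (log2 fold change 4.73 ± 0.29, adjusted p = 1.04e-07), and GLR1.4 changed by 3.08 ± 0.24. AT3G22910, annotated as an E1-E2 type ATPase, had 36.6, 58.2 and 24.95 CPM in ka120 and 1.58, 1.69 and 2.13 CPM in Col-0 (log2 fold change 4.47 ± 0.32, adjusted p = 3.34e-07). CAX3, a vacuolar cation exchanger named after its values were seen, averaged 219 ± 24.1 CPM in ka120 and 30.7 ± 2.89 CPM in Col-0 (log2 fold change 2.83 ± 0.16, adjusted p = 7.84e-08).

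ABC transporters, which use ATP to move many kinds of molecules, had 48 of 110 tested members higher and 28 lower, and past 2-fold these were 24 and 4. ABCC3 (AT3G13080), a vacuolar pump for glutathione conjugates, had 414, 444 and 355 CPM in ka120, against 52.7, 49.0 and 55.2 CPM in Col-0 (log2 fold change 2.95 ± 0.14, adjusted p = 3.12e-08). ABCC6 (AT3G13090) and ABCC7 (AT3G13100), its neighbours on chromosome 3, rose with it, by 4.83 ± 0.55 and 2.73 ± 0.15; as similar neighbours the 3 may share reads. The ABC transporter-like AT3G21080 had 13.4, 14.4 and 11.2 CPM in ka120 and 0.0488, 0.135 and 0.128 CPM in Col-0 (log2 fold change 6.94 ± 0.34, adjusted p = 3.19e-08). Among MATE transporters 12 of 47 were higher and 22 lower, but 15 and 10 by library totals; AT5G44050 was at 1.51 ± 0.173 CPM in ka120 and 24.0 ± 3.51 CPM in Col-0 (log2 fold change -3.99 ± 0.27, adjusted p = 1.98e-07).

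Transporters of ammonium, amino acids and oligopeptides were lower in number, with 19 of 105 higher and 48 lower (median -0.28), yet held steep rises. LHT1, which imports lysine, histidine and other amino acids, had 75.3, 75.7 and 50.9 CPM in ka120, against 4.23, 3.52 and 4.65 CPM in Col-0 (log2 fold change 4.02 ± 0.27, adjusted p = 2.03e-07). AAT1, an importer of cationic amino acids, had 9.29, 8.89 and 5.93 CPM in ka120 and 0.195, 0.135 and 0.369 CPM in Col-0 (log2 fold change 5.07 ± 0.48, adjusted p = 2.86e-06). The ammonium transporter AMT2 changed by 2.12 ± 0.22, and the proline transporter ProT3 by -2.39 ± 0.19. For LHT1 and AAT1 ka120 replicate 3 was the lowest of its group.

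Sugar transporters divided evenly, with 11 of 35 higher and 12 lower (15 and 8 by library totals). MSS1, a hexose importer also known as STP13, had 11.8 ± 4.53 CPM in ka120 and 2.95 ± 1.19 CPM in Col-0 (log2 fold change 2.002 ± 0.36, adjusted p = 4.89e-04). SWEET17, a fructose carrier of the vacuole membrane, had 16.2 ± 0.852 CPM in ka120 and 47.2 ± 1.302 CPM in Col-0 (log2 fold change -1.54 ± 0.11, adjusted p = 2.72e-07), and SWEET16 changed by -1.72 ± 0.32. In the phosphate list 10 of 24 were higher and 6 lower. SPX1, a phosphate sensor, rose (1.35 ± 0.11), while the plastid phosphate transporters PHT4;1 (-1.01 ± 0.09) and PHT2;1 (-0.85 ± 0.18) fell. KEA1, a potassium antiporter of the plastid envelope, had 87.2 ± 6.46 CPM in ka120 and 289.8 ± 8.50 CPM in Col-0 (log2 fold change -1.73 ± 0.12, adjusted p = 2.04e-07).

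Aquaporins had more lower than higher members. Of 14 tested aquaporins of the tonoplast and related types, 6 were lower and 2 higher (median -0.75), and GAMMA-TIP of the vacuole membrane had 218, 189 and 269 CPM in ka120, against 578, 556 and 552 CPM in Col-0 (log2 fold change -1.32 ± 0.14, adjusted p = 6.37e-06). Proton pumps had 6 of 32 higher and 16 lower, but 14 and 5 by library totals. The plasma membrane pump HA11 changed by -1.18 ± 0.11 and VHA-E3, a subunit of the vacuolar pump, by -1.74 ± 0.16.

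Of 412 tested cell wall genes 85 were higher and 162 lower, but 137 and 84 by library totals. Cellulose synthases and their cofactors had 11 of 22 lower and 2 higher, but 4 and 4 by library totals. CESA1, a catalytic subunit for the primary wall, had 197, 192 and 225 CPM in ka120, against 349.6, 339 and 349 CPM in Col-0 (log2 fold change -0.76 ± 0.08, adjusted p = 5.23e-06). The endoglucanase GH9A1, which works with it, changed by -0.78 ± 0.05. The 2 higher members were COBL5, a COBRA-like protein (2.88 ± 0.32), and KOB1 (0.54 ± 0.08), the second named after its values were seen. Among cellulose synthase-like genes 15 of 25 were lower, for example CSLB04 (-1.16 ± 0.13) and ATCSLA09 (-1.05 ± 0.10). The 3 higher ones, named after their values were seen, were CSLA07 (0.38 ± 0.10), CSLD3 (0.37 ± 0.09) and CSLC04 (0.31 ± 0.11); the call of CSLC04 ended when Col-0 replicate 1 or 2, or ka120 replicate 2 or 3, was left out.

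Pectin-modifying enzymes had more lower than higher members. Of 109 tested pectin lyases, polygalacturonases and pectin methylesterases, 52 were lower and 10 higher (median -0.35). PMEPCRF, a pectin methylesterase, had 313, 312 and 289 CPM in ka120, against 84.5, 69.8 and 84.6 CPM in Col-0 (log2 fold change 1.93 ± 0.13, adjusted p = 1.79e-07). ATPMEPCRB, of the same kind, had 20.2, 18.5 and 16.8 CPM in ka120 and 2.70, 2.16 and 3.09 CPM in Col-0 (log2 fold change 2.80 ± 0.24, adjusted p = 1.23e-06). The list of hemicellulose and pectin synthesis, which also takes in other glycosyltransferases, had 26 of 114 higher and 37 lower (51 and 17 by library totals). FUT4, a fucosyltransferase, had 18.8 ± 2.94 CPM in ka120 and 0.820 ± 0.473 CPM in Col-0 (log2 fold change 4.53 ± 0.31, adjusted p = 2.16e-07), and RGXT2, which adds xylose to a pectin, changed by 2.46 ± 0.29. RWA2, which acetylates wall polymers, changed by -1.47 ± 0.07.

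EXT3 (AT1G21310), an extensin that crosslinks into a protein scaffold of the wall, had 205, 210.5 and 172 CPM in ka120, against 3.81, 4.94 and 3.18 CPM in Col-0 (log2 fold change 5.63 ± 0.18, adjusted p = 2.13e-09). EXT4 had 95.9, 95.5 and 74.5 CPM in ka120 and 7.68, 8.75 and 10.2 CPM in Col-0 (log2 fold change 3.32 ± 0.13, adjusted p = 1.13e-08). ELP, an extensin-like protein, was the 1 lower of 9 tested in its list (-1.24 ± 0.17), in which 4 were higher. Class III peroxidases, which crosslink wall polymers and make reactive oxygen outside the cell, had 21 of 41 higher and 8 lower (median 1.46), while laccases, another group of wall oxidases, had 4 of 12 higher and 5 lower, but 5 and 1 by library totals. PRXCB had 341, 361 and 260.4 CPM in ka120 and 34.7, 38.7 and 35.7 CPM in Col-0 (log2 fold change 3.14 ± 0.20, adjusted p = 1.48e-07). AT4G36430, of the same family, had 7.65, 11.2 and 4.61 CPM in ka120 where Col-0 had 0.0814, 0 and 0 CPM (log2 fold change 8.13 ± 0.71, adjusted p = 1.54e-06). The balance depended on low levels: among the 21 with at least 5 CPM in at least 3 libraries, 9 were higher and 8 lower.

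Genes for callose, a glucan laid down in wall defences, held rises on both the synthesis and the breakdown side. CALS1, a callose synthase, had 115, 134 and 103 CPM in ka120, against 20.6, 15.6 and 21.0 CPM in Col-0 (log2 fold change 2.62 ± 0.17, adjusted p = 1.77e-07), and GSL11, another, changed by 1.37 ± 0.08. BG3, a beta-1,3-glucanase, had 17.5 ± 4.71 CPM in ka120 and 0.687 ± 0.304 CPM in Col-0 (log2 fold change 4.65 ± 0.46, adjusted p = 4.04e-06). Over the list 10 of 48 were higher, 8 of them by at least 2-fold, and 20 lower, 0 of them by 2-fold, while library totals gave 16 higher and 8 lower. AGP5, an arabinogalactan protein, had 52.4 ± 13.4 CPM in ka120 and 1.79 ± 0.259 CPM in Col-0 (log2 fold change 4.87 ± 0.42, adjusted p = 1.36e-06), but in its list 5 of 26 were higher and 10 lower, among them AGP21 (-1.27 ± 0.14).

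**Figure D2:**
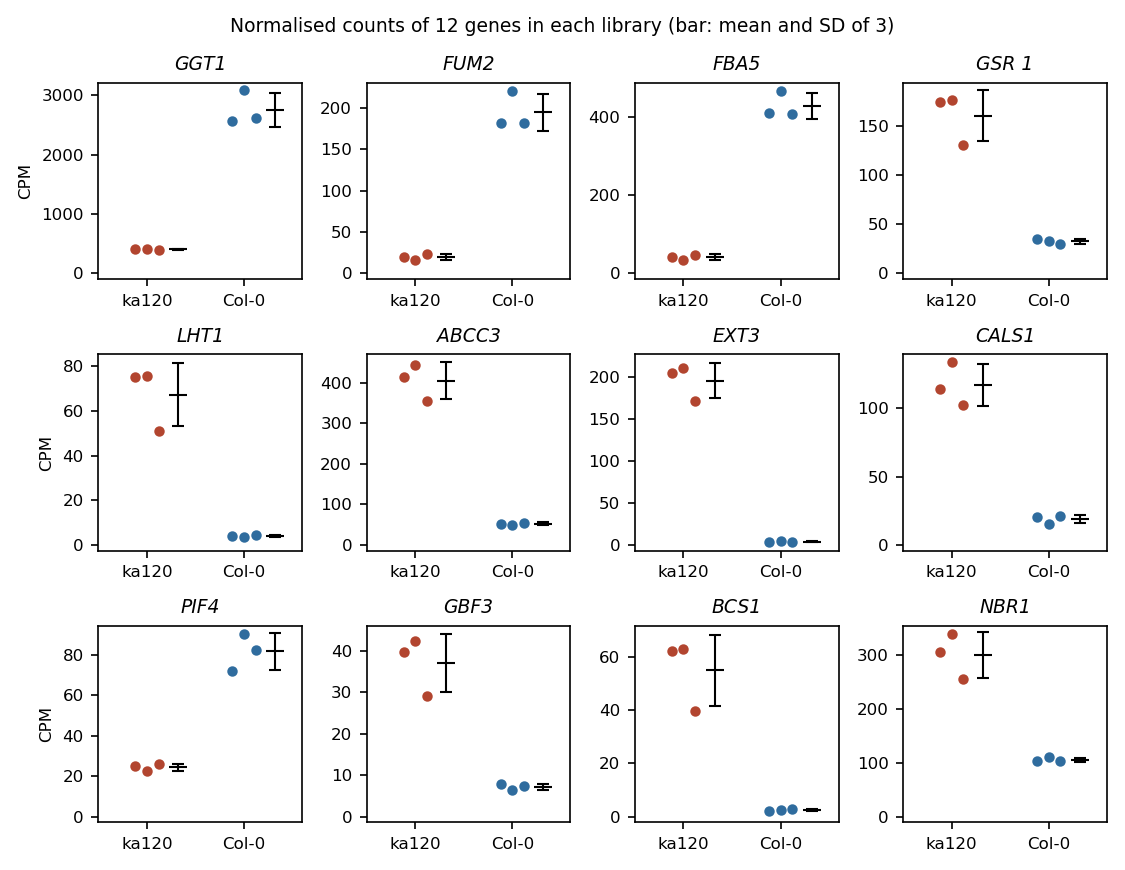
Normalised counts (CPM, linear axis) of 12 genes in the 3 ka120 libraries (red, left) and the 3 Col-0 libraries (blue, right), each point 1 library, with mean and SD as bars beside them. GGT1, FUM2, FBA5 and PIF4 lie lower in ka120 and the other 8 genes higher. The genes were picked among those without overlap between the genotypes, so their separation is a condition of the choice. Of all tested genes, 63.3% did not overlap.

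Of 1029 tested transcription factors 303 were higher and 231 lower, with the higher share near that of all genes; the families differed. WRKY factors, many of which act in immunity, had 37 of 60 higher, 27 by at least 2-fold, and 5 lower (median 0.93). WRKY46 had 76.1, 88.9 and 39.9 CPM in ka120, against 2.64, 2.63 and 2.95 CPM in Col-0 (log2 fold change 4.64 ± 0.42, adjusted p = 1.86e-06). WRKY50 had 55.5, 57.4 and 32.1 CPM in ka120 and 0.423, 0.725 and 0.383 CPM in Col-0 (log2 fold change 6.58 ± 0.54, adjusted p = 9.11e-07), and WRKY51 changed by 7.42 ± 0.71. ka120 replicate 3 held the lowest ka120 value in each of WRKY46, WRKY50 and WRKY51. The 5 lower members, named after their values were seen, were WRKY27 (-0.87 ± 0.17), WRKY11 (-0.63 ± 0.11), WRKY23 (-0.47 ± 0.16), WRKY7 (-0.21 ± 0.07) and the barely detected WRKY49, at 0.0905 ± 0.0480 CPM in ka120 and 0.491 ± 0.179 CPM in Col-0. Without Col-0 replicate 2 or ka120 replicate 2 only 2 of the 5 were called, and without ka120 replicate 1 or 3 only 3, and WRKY7 lay higher without a call by library totals.

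NAC factors also had few lower members: 35 of 85 were higher and 7 lower (median 0.54), and 3 were lower without Col-0 replicate 2 or ka120 replicate 3, and 4 without any of Col-0 replicates 1 and 3 and ka120 replicate 1. NAC042, also called JUNGBRUNNEN1 and known to delay leaf senescence, had 13.8, 13.6 and 13.6 CPM in ka120, where Col-0 had 0.130, 0 and 0.128 CPM (log2 fold change 7.24 ± 0.52, adjusted p = 3.11e-07). NAC090 had 9.61, 10.9 and 4.98 CPM in ka120 and 0.0814, 0.0843 and 0.170 CPM in Col-0 (log2 fold change 6.19 ± 0.70, adjusted p = 1.11e-05); NAC085 (6.66 ± 0.57) and NAC061 (5.73 ± 0.70) rose with it. CAMTA and CBP60 factors, many of which bind calmodulin, had 10 of 14 higher and 2 lower, and heat shock factors 7 of 15 higher and 2 lower. HSFA8 had 20.6 ± 5.23 CPM in ka120 and 1.49 ± 0.359 CPM in Col-0 (log2 fold change 3.78 ± 0.32, adjusted p = 1.09e-06), while HSFC1 had 3.37 ± 0.4995 CPM in ka120 and 15.6 ± 0.321 CPM in Col-0 (log2 fold change -2.21 ± 0.16, adjusted p = 3.11e-07).

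Of 120 tested bHLH factors, 16 were higher and 46 lower (median -0.20), but 35 and 22 by library totals. PIF4, a phytochrome-interacting factor that promotes elongation growth, had 25.03, 22.4 and 25.8 CPM in ka120, against 72.1, 90.4 and 82.5 CPM in Col-0 (log2 fold change -1.74 ± 0.10, adjusted p = 6.14e-08). PIL5, also called PIF1, had 9.45, 8.19 and 11.5 CPM in ka120 and 27.9, 33.95 and 28.2 CPM in Col-0 (log2 fold change -1.62 ± 0.21, adjusted p = 2.97e-05), and PRE1, a small factor that promotes elongation, changed by -1.72 ± 0.13. TCP factors, regulators of cell proliferation, had 10 of 22 lower and 4 higher, but 7 and 7 by library totals. TCP14 changed by -0.87 ± 0.08 and TCP4 by -0.79 ± 0.10. The 4 higher members, named after their values were seen, were TCP3 (0.74 ± 0.09), PTF1 (0.50 ± 0.12), TCP9 (0.44 ± 0.08) and TCP5 (0.42 ± 0.12), the last no longer called without Col-0 replicate 2 or 3. SPL factors, which mark the passage to the adult phase, had 6 of 16 lower, among them SPL4 (-1.14 ± 0.15) and SPL9 (-0.89 ± 0.14), and SPL13A higher (1.28 ± 0.13), with 6 higher and 3 lower by library totals.

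The bZIP family leaned upward, with 25 of 65 higher and 9 lower. GBF3, which binds the G-box, had 39.8, 42.5 and 29.0 CPM in ka120, against 7.80, 6.47 and 7.39 CPM in Col-0 (log2 fold change 2.36 ± 0.17, adjusted p = 4.12e-07). BZIP60, a regulator of the unfolded protein response, had 83.9 ± 15.96 CPM in ka120 and 24.8 ± 2.49 CPM in Col-0 (log2 fold change 1.76 ± 0.20, adjusted p = 1.06e-05). BZO2H3, also called bZIP63 and known for its part in the energy response, was lower at 15.3 ± 2.41 CPM in ka120 and 47.8 ± 3.93 CPM in Col-0 (log2 fold change -1.64 ± 0.14, adjusted p = 1.30e-06). ERF and DREB factors had 33 of 100 higher and 24 lower, with ESE3 at 29.1 ± 2.68 CPM in ka120 and 3.65 ± 0.625 CPM in Col-0 (log2 fold change 2.99 ± 0.21, adjusted p = 2.96e-07). MYB factors had 29 of 105 higher and 22 lower; MYB51, known for activating indole glucosinolate genes, changed by 1.37 ± 0.28 and MYBL2, a repressor of anthocyanin synthesis, by -1.51 ± 0.29. Among zinc finger factors 30 of 125 were higher and 29 lower. ZAT7 had 30.9, 32.4 and 19.1 CPM in ka120 and 0.423, 0.674 and 0.581 CPM in Col-0 (log2 fold change 5.61 ± 0.39, adjusted p = 2.58e-07), and its neighbour AT3G46080, with which it may share reads, changed by 4.49 ± 0.54. CDF1, a DOF factor that delays flowering, had 18.9 ± 1.06 CPM in ka120 and 61.1 ± 1.32 CPM in Col-0 (log2 fold change -1.69 ± 0.10, adjusted p = 1.23e-07). The AP2-type SNZ, which also represses flowering, changed by -1.76 ± 0.17, and HAT1, a homeodomain factor of the shade response, by -1.75 ± 0.20.

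**Figure D3:**
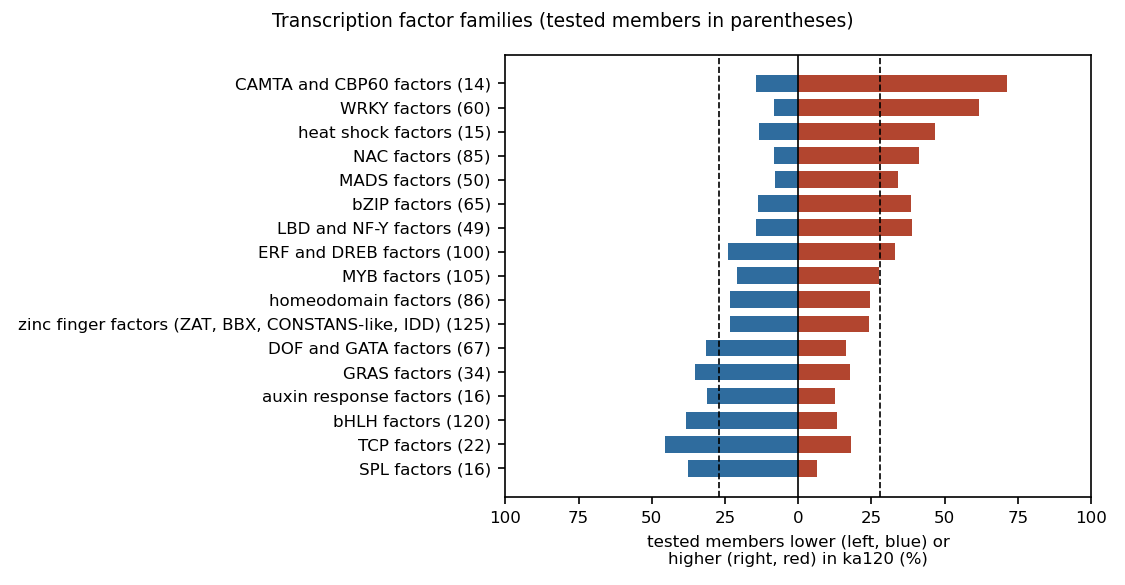
Share of tested members of each transcription factor family called higher (right, red) or lower (left, blue) in ka120 than in Col-0, in percent, with the number tested in parentheses. Dashed lines mark 28.0% higher and 27.0% lower over all tested genes; CAMTA and CBP60, WRKY, heat shock and NAC factors lie at the top, and bHLH, TCP and SPL factors at the bottom.

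Of 38 tested nuclear genes for plastid ribosomal proteins, 37 were lower and 0 higher, all by less than 2-fold (median -0.53). Together they summed to 11830.0 ± 1011 CPM in ka120 and 17148 ± 246 CPM in Col-0. RPL24 of the large subunit had 236, 237 and 329 CPM in ka120, against 479, 480.1 and 466 CPM in Col-0 (log2 fold change -0.83 ± 0.11, adjusted p = 4.48e-05). The 1 member without a call, GHS1 of the small subunit, had 243, 239.7 and 284 CPM in ka120 and 245, 377 and 369 CPM in Col-0 (adjusted p = 0.158); it was named after its values were seen, its groups overlapped, and it was called lower without Col-0 replicate 1 (adjusted p = 0.0472). Cytosolic ribosomal proteins had 8 of 105 higher and 38 lower (median -0.15), but 47 and 4 by library totals, so their direction depended on the scaling while that of the plastid set, at 0 and 26, did not. Without Col-0 replicate 2, 4 cytosolic ones were higher, and 5 without Col-0 replicate 3 or ka120 replicate 2.

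Plastid transcription and import were lower in fewer members. Sigma factors and partners of the plastid RNA polymerase had 13 of 24 lower and 0 higher, but 4 lower and 10 higher by library totals. PTAC16, found with plastid DNA and thylakoids, had 697, 662 and 763 CPM in ka120, against 1396, 1534 and 1464 CPM in Col-0 (log2 fold change -1.05 ± 0.09, adjusted p = 1.02e-06), and the sigma factor SIGA changed by -0.72 ± 0.07. In the import list 14 of 28 were lower and 3 higher (4 and 12 by library totals). Tic62, a redox-sensitive partner of the inner envelope translocon, had 79.6 ± 12.8 CPM in ka120 and 322 ± 10.9 CPM in Col-0 (log2 fold change -2.01 ± 0.13, adjusted p = 1.68e-07). Tic20-IV, a channel isoform, had 12.9, 14.8 and 11.8 CPM in ka120 and 1.64, 1.35 and 1.96 CPM in Col-0 (log2 fold change 2.996 ± 0.16, adjusted p = 4.44e-08), the reverse of Tic62. Among FtsH, Deg, Clp and EGY proteases 23 of 38 were lower and 5 higher, but 12 and 15 by library totals.

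Transcripts of the chloroplast genome itself were scarce in these mRNA libraries. They made up 0.150 ± 0.0123% of counts in ka120 and 0.129 ± 0.0537% in Col-0 (SD, n = 3 each; exact permutation test, two-sided, p = 0.6). The shares in this paragraph are of library totals, without the TMM factors. With those factors, the tested chloroplast genes summed to 1389 ± 106 CPM in ka120 and 1496 ± 612 CPM in Col-0. The smallest p that 3 against 3 libraries allow is 0.1. Col-0 replicate 1 alone held 0.191%, and with the ribosomal RNA genes removed the shares were 0.0290% in ka120 and 0.0181% in Col-0 (exact permutation p = 0.1), without overlap. Of 97 tested chloroplast genes 22 were higher and 11 lower; without ka120 replicate 3 these were 14 and 11, and without Col-0 replicate 3 they were 14 and 14. The mitochondrial genome gave 0.00451 ± 0.000609% of counts in ka120 and 0.00463 ± 0.000639% in Col-0 (SD, n = 3 each; exact permutation p = 0.9). With the ribosomal RNA genes removed, its shares were 0.000827% in ka120 and 0.00132% in Col-0 (exact permutation p = 0.1), without overlap. In normalised counts, its tested genes summed to 40.7 ± 5.20 CPM in ka120 and 51.5 ± 7.52 CPM in Col-0. Of 39 tested mitochondrial genes 12 were lower and 1 higher, and 7 were lower without ka120 replicate 1.

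Among subunits and assembly factors of the respiratory chain and ATP synthase, 22 of 60 were higher and 4 lower (median 0.17). COX19-1, a copper chaperone for cytochrome oxidase, had 21.9, 21.3 and 15.03 CPM in ka120, against 6.23, 7.72 and 6.71 CPM in Col-0 (log2 fold change 1.49 ± 0.20, adjusted p = 5.73e-05). SURF1, an assembly factor of the same complex, changed by 0.78 ± 0.10. The 4 lower members, named after their values were seen, were INDH (-0.63 ± 0.14), AT5G61310 (-0.39 ± 0.10), AT5G52840 (-0.19 ± 0.06) and AT4G02580 (-0.13 ± 0.05); by library totals none of the 4 was called lower, and AT4G02580, whose call also ended when any 1 library was left out, was called higher. BCS1 (AT3G50930), an AAA ATPase of the mitochondrial outer membrane induced by many stresses, had 62.2, 63.0 and 39.6 CPM in ka120 and 2.05, 2.60 and 2.75 CPM in Col-0 (log2 fold change 4.47 ± 0.32, adjusted p = 3.30e-07). TIM17-1, an isoform of the inner membrane translocase, had 11.5, 11.9 and 10.02 CPM in ka120 and 1.17, 1.11 and 1.73 CPM in Col-0 (log2 fold change 3.05 ± 0.23, adjusted p = 4.38e-07). For both genes ka120 replicate 3 was the lowest ka120 library. PPR proteins, which process organelle RNAs, had 70 of 244 higher and 27 lower; OTP87, a mitochondrial editing factor, changed by 2.03 ± 0.13.

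Autophagy genes, which deliver cell contents to the vacuole, had 18 of 32 higher and 1 lower (median 0.30). NBR1, a receptor that brings ubiquitinated cargo to autophagosomes, had 305, 339 and 255 CPM in ka120, against 103, 110.2 and 103 CPM in Col-0 (log2 fold change 1.51 ± 0.09, adjusted p = 1.03e-07). APG8A, an ATG8 protein of the autophagosome membrane, had 43.1 ± 6.31 CPM in ka120 and 16.1 ± 1.53 CPM in Col-0 (log2 fold change 1.42 ± 0.15, adjusted p = 7.65e-06), and ATG8D changed by 1.38 ± 0.15. The 1 lower member, named after its values were seen, was ATG6 (log2 fold change -0.29 ± 0.08, adjusted p = 0.00979), not called by library totals. Of 37 tested proteasome subunits 28 were higher, all by less than 2-fold (median 0.29), with RPT3 of the base ring at 118 ± 7.29 CPM in ka120 and 73.6 ± 3.32 CPM in Col-0 (log2 fold change 0.68 ± 0.07, adjusted p = 5.05e-06). The 2 lower ones, named after their values were seen, were AT1G53780 (-0.56 ± 0.09) and PAC1 (-0.14 ± 0.06); the call of PAC1 ended when any 1 library was left out, and it was called higher by library totals. In vesicle trafficking 34 of 82 were higher and 10 lower. SYP122, a syntaxin of the plasma membrane, had 45.99, 49.9 and 31.9 CPM in ka120 and 3.65, 4.25 and 4.48 CPM in Col-0 (log2 fold change 3.37 ± 0.29, adjusted p = 1.49e-06), and the exocyst subunits EXO70B2 (2.43 ± 0.33) and EXO70E2 (1.91 ± 0.16) rose with it.

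**Figure D4:**
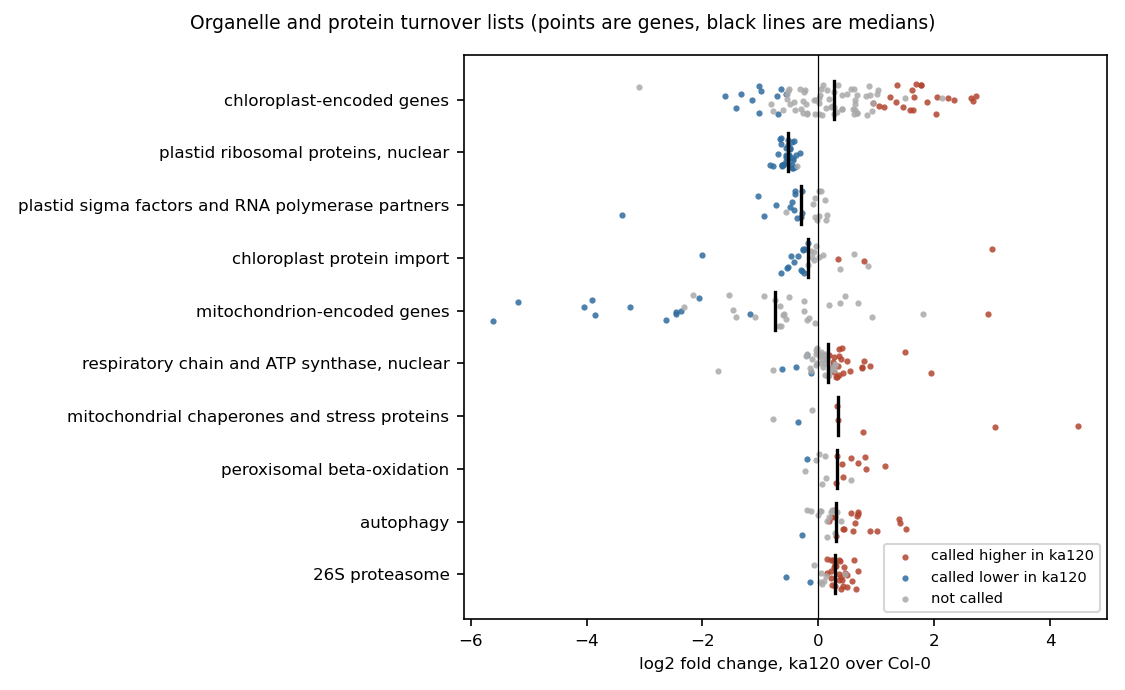
log2 fold change of ka120 over Col-0 (x axis) for each tested gene of 10 organelle and turnover lists, 1 point per gene, red where called higher in ka120, blue where called lower and grey where not called; black lines are list medians. Plastid ribosomal proteins form a narrow band below 0 with a median of -0.53, while autophagy and 26S proteasome genes have medians of 0.30 and 0.29.

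Among hormone and signalling genes, the small SAUR proteins, which are rapidly induced by auxin during growth, had 12 of 66 higher and 26 lower, 21 of the lower ones by at least 2-fold (median -0.52). SAUR20 had 2.71, 2.97 and 3.67 CPM in ka120, against 12.04, 14.9 and 13.7 CPM in Col-0 (log2 fold change -2.12 ± 0.16, adjusted p = 5.75e-07). In the brassinosteroid list 13 of 25 were lower and 3 higher (8 and 9 by library totals). CPD, a P450 of brassinosteroid synthesis, changed by -1.02 ± 0.11, while the receptor BRL3 had 21.9 ± 4.39 CPM in ka120 and 3.71 ± 0.180 CPM in Col-0 (log2 fold change 2.56 ± 0.19, adjusted p = 4.40e-07). In the cytokinin list 20 of 45 were lower and 11 higher (11 and 16 by library totals), with IPT3, an enzyme of cytokinin synthesis (-1.64 ± 0.14), and the response regulator ARR15 (-1.62 ± 0.15) among the lower. GID1B, a gibberellin receptor, changed by 1.91 ± 0.14 and GA3OX1, which makes active gibberellin, by -1.10 ± 0.20.

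EF-hand proteins had 30 of 61 higher and 8 lower, and the calcium-dependent kinases 14 of 28 higher and 7 lower. Leaving out any 1 library left 5 lower EF-hand genes; 4 kinases were lower without Col-0 replicate 3 or ka120 replicate 1, and 3 without ka120 replicate 2. AT3G47480, an EF-hand protein, had 80.5, 88.4 and 54.9 CPM in ka120, against 0.846, 1.79 and 1.96 CPM in Col-0 (log2 fold change 5.60 ± 0.37, adjusted p = 1.95e-07). Lectin receptor kinases had 25 of 53 higher and 9 lower. F-box proteins, which choose targets for ubiquitination, had 86 of 223 higher and 25 lower, and the ubiquitin ligase PUB54 had 56.3, 61.7 and 36.2 CPM in ka120 and 0.618, 0.944 and 0.567 CPM in Col-0 (log2 fold change 6.19 ± 0.50, adjusted p = 8.49e-07).

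The 250 bases before the annotated start of 22112 tested genes were searched on both strands for short motifs known to be bound by transcription factors. The W-box, the site of WRKY factors, was searched as TTGACC and TTGACT, which can overlap each other by at most 1 base. Either form stood in 38.9% of promoters of genes higher by at least 2-fold and in 24.0% of those lower by at least 2-fold, against 28.1% of all. At least 2 matches stood in 11.1% of the higher and 4.09% of the lower set, against 5.91% of all. GATAAG, the I-box of light-regulated genes, went the other way, with 12.1% of the higher and 15.2% of the lower set, against 12.5% of all. The G-box CACGTG stood in 6.45% of the higher and 8.90% of the lower set, against 7.001% of all. GCCGCC, the box of ERF factors, differed little, with 1.74% and 2.01%, against 2.04% of all. The other motifs searched were CCGAC (10.6% and 11.95%, against 12.7% of all), AAACCCTA (3.82% and 2.68%, against 3.93%) and AAATATCT (4.80% and 6.59%, against 4.76%), given for the higher and the lower set. A match is a description of letters and not evidence that a factor binds there.

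Promoters of 4 genes are shown to make these matches visible, chosen after their values and matches were seen. In the first 3, whose genes were higher in ka120, the capitals mark TTGACC or TTGACT on either strand, so that the reverse complements GGTCAA and AGTCAA count too. They are read 5′ to 3′ on the gene's strand from the TAIR10.1 reference and end at the base before the annotated start. AOX1A lies on the plus strand at chr3:7906271-7906520, TIM17-1 on the plus strand at chr1:7043378-7043627 and ATGLR1.2 on the plus strand at chr5:19615816-19616065.
AOX1A: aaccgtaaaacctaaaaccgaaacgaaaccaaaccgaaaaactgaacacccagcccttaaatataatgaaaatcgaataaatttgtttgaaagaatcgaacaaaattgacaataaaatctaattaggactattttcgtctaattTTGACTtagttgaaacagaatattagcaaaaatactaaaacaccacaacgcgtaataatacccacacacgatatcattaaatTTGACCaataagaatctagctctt
TIM17-1: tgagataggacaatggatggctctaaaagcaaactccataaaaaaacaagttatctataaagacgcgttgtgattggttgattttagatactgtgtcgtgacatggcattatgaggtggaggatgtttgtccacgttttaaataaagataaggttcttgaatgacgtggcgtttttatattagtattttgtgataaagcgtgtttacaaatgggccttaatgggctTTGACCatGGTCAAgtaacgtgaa
ATGLR1.2: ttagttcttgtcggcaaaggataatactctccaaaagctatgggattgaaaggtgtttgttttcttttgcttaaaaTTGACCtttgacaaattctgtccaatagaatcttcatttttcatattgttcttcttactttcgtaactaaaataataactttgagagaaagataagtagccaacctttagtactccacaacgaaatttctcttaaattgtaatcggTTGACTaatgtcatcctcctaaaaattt
RBCS2B, a rubisco small subunit gene lower in ka120 (-1.13 ± 0.12), lies on the minus strand at chr5:15382072-15382321, and there the capitals mark GATAAG or its reverse complement CTTATC.
RBCS2B: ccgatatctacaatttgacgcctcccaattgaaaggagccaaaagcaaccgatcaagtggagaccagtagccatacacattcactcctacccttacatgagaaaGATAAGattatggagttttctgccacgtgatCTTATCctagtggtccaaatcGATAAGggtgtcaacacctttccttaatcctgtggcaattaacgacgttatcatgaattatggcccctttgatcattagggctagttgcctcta

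Markers of several leaf cell types were lower in ka120, and their part in the results above was not tested. All 15 mesophyll and photosynthesis markers were lower in ka120, with a summed level of 57791 to 67804 CPM in ka120 and 116628 to 126895 CPM in Col-0. Phloem markers had 8 of 12 lower and 0 higher (585 to 633 CPM in ka120 and 1062 to 1225 CPM in Col-0), and xylem markers 9 of 12 lower and 0 higher (113 to 138 CPM in ka120 and 182 to 195 CPM in Col-0). Guard cell markers had 7 of 14 lower and 2 higher (239 to 301 CPM in ka120 and 382 to 402 CPM in Col-0; 3 and 5 by library totals), with 4 lower without ka120 replicate 2. Epidermis markers had 5 of 11 lower and 0 higher (771 to 899 CPM in ka120 and 889 to 1033 CPM in Col-0; 1 and 2 by library totals), with 2 lower without Col-0 replicate 1 or ka120 replicate 2 and 3 without Col-0 replicate 2 or 3. Of 10 tested markers each, 3 of root, 4 of flower and 2 of the shoot meristem were higher, and 1 of the meristem was lower. Root markers summed to 62.1 to 66.4 CPM in ka120 and 62.2 to 70.5 CPM in Col-0, with PLT1, PLT2 and IRT1 at 0 counts in all 6 libraries. Flower markers summed to 11.7 to 15.2 CPM in ka120 and 7.80 to 8.58 CPM in Col-0, and shoot meristem markers to 54.6 to 66.2 CPM in ka120 and 78.8 to 84.6 CPM in Col-0. In both genotypes the mesophyll markers summed far above those of root and flower, as the leaf label has it.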

How the data were processed

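Strand-specific mRNA libraries of rosette leaves were sequenced from 4 genotypes, with 3 libraries each. The deposited count table holds 34262 genes in expected counts per gene, already whole numbers; HISAT2 2.0.4 and HTSeq 0.6.1p1 with the TAIR10 build are listed in the submitters' processing notes without roles, and no source used here gives the strand setting of counting. Between 46.1% and 48.1% of values from 4 to 40 were multiples of 4 per library, against 25% by chance, and no source gives the reason. A second deposited table of log2 values for 22605 genes was the count plus 0.5 over 1 constant per library, as tested on the files, and served only for that check.

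All 12 libraries were fitted with edgeR 4.0.16 in R 4.3.3, with TMM factors, filterByExpr and 1 coefficient per genotype, leaving 8 residual degrees of freedom. The quasi-likelihood F test compared ka120 with Col-0, and the standard error is the fold change divided by the square root of F. The script was tested on simulated data. Replicates differed by more than sampling noise, with a chi-square per degree of freedom of 23.9 to 66.9, so none was counted as a duplicate. Of the identifiers, 32548 matched TAIR10.1 and 1714 did not; names, gene lists, starts and promoters come from TAIR10.1, since the count table holds no coordinates.

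The lists and the genes shown were chosen with earlier results of these data known. After values were seen, 2 lists, those of chloroplast import and of plastid isoprenoid synthesis, each lost a gene that did not belong there. Named genes were KA120, up to 4 called members per list with the largest fold change, at least 5 CPM in the higher group and no overlap, the 12 largest gains and losses in CPM outside the immune list, and the 8 transcription factors that changed most in each direction; cell type markers are given as list counts and sums. Any other gene is said to be chosen after its values were seen. DESeq2 1.42.0 and other scalings, filters, library sets and a block were tried as alternatives.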

Additional observations from a re-analysis of the deposited data

How the results depend on the processing

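Over the other scalings with factors, DESeq2, no filter, the 6 libraries alone, organelle genes left out and counts divided by 4, the calls stayed between 5822 and 6483 higher and between 5745 and 6377 lower. Leaving out 1 library in turn gave 5475 to 6036 higher and 5204 to 5677 lower, and 10679 to 11713 in all. Calls of at least 2-fold then ranged from 2184 to 2473 higher and from 1451 to 1731 lower. Lists with more higher than lower calls numbered 44 and those with more lower 58. Without 1 library they numbered 37 to 45 and 55 to 59, in the fits of the first sentence 37 to 44 and 57 to 63, and with the stricter filter 35 and 61. A stricter filter of 5 CPM in 3 libraries tested 15519 genes and gave 4955 higher and 5000 lower calls, with 1217 higher and 991 lower by at least 2-fold. Of the 204 counts of higher or lower members per list, 43 moved markedly under this filter, so the peroxidase list was not alone in this. Library totals without factors and counts divided by 4 were chosen after seeing the data. Library totals gave 10754 higher and 3091 lower calls, 861 of the lower by at least 2-fold, and 81 lists with more higher against 17 with more lower calls; the factors were the only change. They turned 9 named genes to positive log2 fold changes: HPT1 0.064, FUM1 0.19, PAC1 0.18, ACX4 0.14, ATG6 0.0401, AT4G02580 0.20, WRKY7 0.12, VTE5 0.062 and AT5G52840 0.14. The chloroplast share of counts, ka120 minus Col-0, ranged from 0.00553 to 0.0522 percentage points without 1 library, and the mitochondrial share from -0.000380 to 0.000251. Same-numbered libraries did not deviate together (correlations of -0.0139, -0.0116 and -0.0101), though such values cannot exclude a small effect shared by equal numbers. The main fit did not pair them, and a replicate block gave 6205 higher and 5963 lower calls. Depth limits the low genes: with counts divided by 4, 20172 genes were tested in place of 22351.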
